A study of Drosophila melanogaster with 5 samples.

Results

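A set of 196 of the 16637 array transcripts had a clearly higher signal in Drosophila larvae mutant for dDP than in wild-type larvae. On at least 1 wild-type array their signal was above the dimmest part of the scale. Each of the 196 had at least 1 wild-type value of 9 or more, and its lowest mutant value exceeded its highest wild-type value by at least 1 on the log2 scale, a doubling of signal. These transcripts are called the raised transcripts here, and the distance from the highest wild-type to the lowest mutant value is called the gap. They were chosen by the mutant and wild-type values of these same 5 arrays, so their direction and a minimum size were fixed by the choice, and the difference between genotypes is given below as a description.

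NimbleGen expression arrays measured total RNA of whole third-instar larvae, with 1 Cy3-labelled sample on each. There were 3 arrays of dDPa3/dDPa4 larvae, which carry different mutant alleles of dDP on the 2 homologues, numbered 1 to 3, and 2 arrays of w1118 wild-type larvae, numbered 1 and 3. The titles call the mutant samples a knockdown, and the genotype field was followed here; wild-type replicate 2 was not analysed. All larvae grew on regular medium without further treatment. No label says how many larvae went into a sample or whether replicates came from separate collections, and p-values then reflect the variation of these samples alone, which may be technical. Each value is an RMA value, taken to be log2, and array medians lay between 11.64 and 11.69.

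DP forms the dimers through which E2F proteins contact DNA at their target genes. In Drosophila, dDP pairs with E2f1, which mainly activates genes for DNA synthesis and mitosis, and with E2f2, which acts as a repressor together with the retinoblastoma proteins in the dREAM complex. Both forms need DP, and larvae that lack it are known to develop to late stages before they die. In RNA of whole larvae, more cells of a type and more RNA per cell cannot be told apart.

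None of the 196 could be given a gene name, as 0 of them matched the RefSeq gene table of Release 6 plus ISO1 MT, where 44 of all 16637 transcripts matched. Markers of larval tissues, E2F target genes and dDP itself were for the same reason not analysed here. The raised transcripts are therefore described by their signals, with 2 of them given by their FlyBase transcript identifier. Probe sequences were not analysed here.

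The signals of the raised transcripts lay in the lower part of the wild-type range and in the middle of the mutant range. Their medians were 12.15, 12.21 and 12.43 on mutant arrays 1, 2 and 3, against 10.2 and 10.21 on wild-type arrays 1 and 3. The lowest and highest values on a mutant array were 10.28 and 14.97, against 7.47 and 13.32 on a wild-type array. The rule set a floor to the mutant values but none to the lower wild-type value. As ranks among all transcripts on the same array, the medians were the percentiles 57.7, 59.7 and 63.3 in the mutant, against 31.4 and 31.2 in the wild type. Probes differ between transcripts, and a rank here is one of signal, not of abundance.

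**Figure D1:**
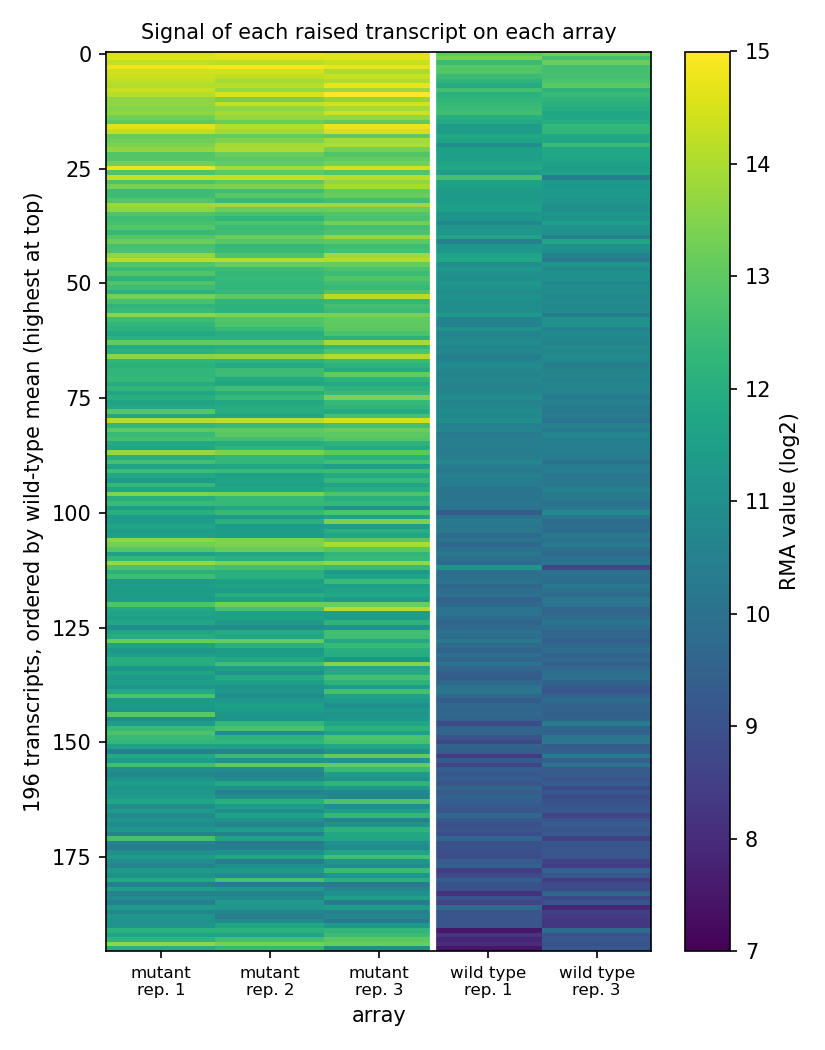
RMA values (log2, colour) of the 196 raised transcripts (rows, ordered by wild-type mean) on the 3 dDP mutant arrays (left) and the 2 wild-type arrays (right). The array medians of these transcripts are 12.15 to 12.43 in the mutant and 10.2 to 10.21 in the wild type, and the mutant columns are brighter in every row because the rule required it.

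A wild-type value of 9 stood at the percentile 21.7 of wild-type array 1 and 21.6 of wild-type array 3, so the requirement removed only the dimmest transcripts and kept 13287 of 16637. Whether a signal of 9 lies above background could not be read from these values, and calling the transcripts expressed in the wild type rests on that level alone. Both wild-type values reached 9 for 161 of the 196, and 1 of them was lower for the other 35. Of the 196, 33 lay below the lower quartile on both wild-type arrays, and 0 did so on all 3 mutant arrays. The rule fixed that 0, as a wild-type value of 9 plus a gap of 1 exceeds the mutant lower quartiles of 9.37 to 9.48. Above the array median on all 3 mutant arrays lay 115 transcripts, of which 85 had been below it on both wild-type arrays. Above the upper quartile on all 3 mutant arrays lay 33, and 14 exceeded the percentile 90, while 0 exceeded the upper quartile on both wild-type arrays. The highest mutant value among them, 14.97, was below the 15.73 that the brightest transcript of the table reached.

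**Figure D2:**
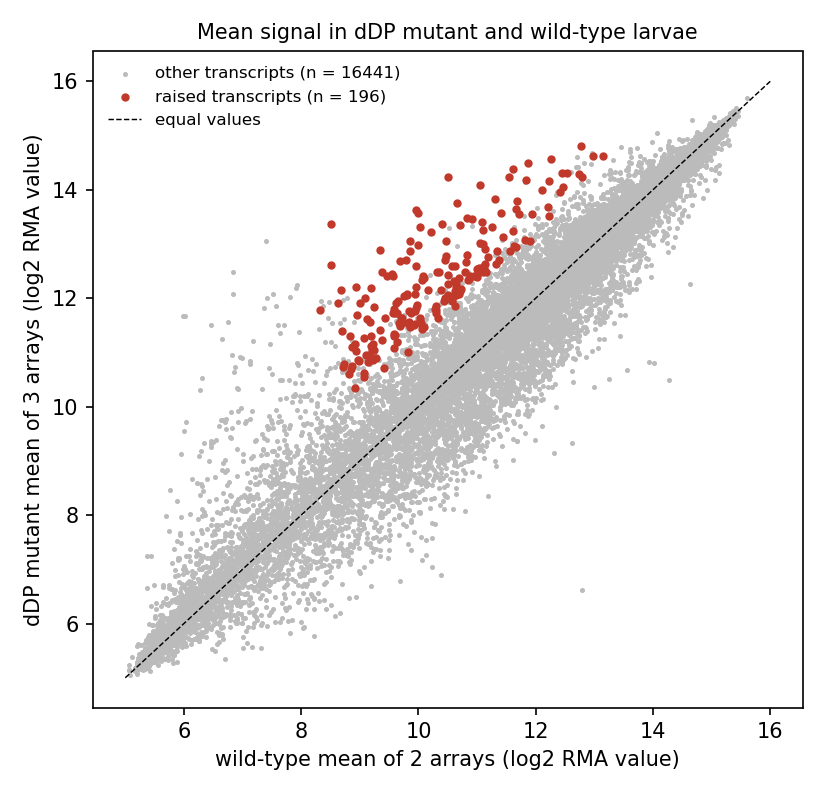
Mean RMA value (log2) of each transcript in dDP mutant larvae (vertical, 3 arrays) against wild-type larvae (horizontal, 2 arrays), with the 196 raised transcripts in red and the other transcripts in grey. The red points lie above the dashed line of equal values by 1.16 to 4.86, as the rule required of them a gap of at least 1.

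Differences between the means of the genotypes had a median of 1.87 on the log2 scale, or 3.66-fold, and ran from 1.16 (2.23-fold) to 4.86 (29.0-fold). A difference of at least 1, which the rule implies for all 196, was found for 5.83% of all transcripts. The differences were at least 2 for 79 of the raised transcripts, at least 3 for 18 and under 1.5 for 39. The gap had a median of 1.35 and was under 1.25 for 79 transcripts, at least 2 for 33 and at least 3 for 5. The edge of the rule therefore cut through a continuous range. Among transcripts with a wild-type value of 9 or more, 144 had a gap from 0.75 to under 1, and 79 had one from 1 to under 1.25. The transcript just inside had mutant values of 12.86, 12.43 and 12.59, against wild-type values of 11.42 and 11.23, a gap of 1.01. The one just outside had mutant values of 14.18, 13.83 and 13.68, against wild-type values of 12.00 and 12.69, a gap of 0.998. At the other edge, the highest wild-type value was 9.0003 just inside and 8.98 just outside.

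By the rule every mutant value of the 196 exceeded both wild-type values, and this was so for 21.6% of all transcripts. Gaps of at least 1 in this direction were found for 2.34% of all transcripts, or 389, of which the other 193 had both wild-type values under 9. Among the 13287 transcripts with a wild-type value of 9 or more, the 196 make up 1.48%. A fall by the same gap was found for 81 of these 13287, or 0.61%, so that rises counted by this gap were more numerous than falls on these 5 arrays. The 81 had a median mutant SD of 0.523, against 0.278 for the 196, and a wide spread narrows a gap. Falls between means were not counted here, so no predominance of rises over falls is read from these counts.

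In the limma fit over all 16637 transcripts, with genotype as the only term, 118 of the 196 had a Benjamini-Hochberg adjusted p below 0.05, or 60.2%, against 1.42% of all transcripts called as higher (236). The rule used the same contrast, so nothing is read from that share. The 118 are 50% of the calls in this direction. Of the remaining calls, 115 had the same gap from a dimmer wild-type level and 3 had a smaller gap. Adjusted p over the 196 ran from 0.0136 to 0.16, and all 196 had an unadjusted limma p below 0.05. Of all 16637 transcripts, 3007 had such an unadjusted p, in either direction. The count of 118 rested on having all 5 arrays. Without mutant replicate 1 limma called 30 of the 196 (0.613% of all transcripts). Without mutant replicate 2, mutant replicate 3, wild-type replicate 1 or wild-type replicate 3 it called 0 (0% of all transcripts), with 196, 196, 195 and 194 of them at an unadjusted p below 0.05. With a single wild-type array left, its variation is taken to be like that among the mutant arrays. No share of all transcripts at an unadjusted limma p below 0.05 is given for the fits with an array left out. Nothing is read from their unadjusted counts. Under median centring, repeated quantile normalisation and cyclic loess limma called 115, 121 and 93 of the 196 (1.38%, 1.45% and 1.17% of all transcripts), and with trend and robust settings 115 (1.48%). Array weights gave 169 (3.35%), a threshold of 0.1 gave 173 (2.99%) and the replicate number as a block gave 127 (1.99%). With no wild-type array numbered 2, the block fit takes no genotype difference from mutant replicate 2, without which limma called 0. Without the dimmest 25% of transcripts 122 passed (1.46% of those tested), and without the dimmest 50%, where 79 were left, 46 passed (0.589%).

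The raised transcripts that passed and those that did not had similar median differences, 1.9 (1.16 to 4.86) among those that passed and 1.87 (1.29 to 3.49) among those that did not. The spread between arrays differed. The SD of the 3 mutant arrays had a median of 0.206 among the 118 that passed and 0.382 among the 78 that did not. The SD of the 2 wild-type arrays had a median of 0.14 among those that passed and 0.346 among those that did not. A smaller spread is part of what the test asks for, so this describes the calls and is no finding about the transcripts. The standard error of the difference ran from 0.15 to 0.465 among those that passed and from 0.198 to 0.696 among the others.

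**Figure D3:**
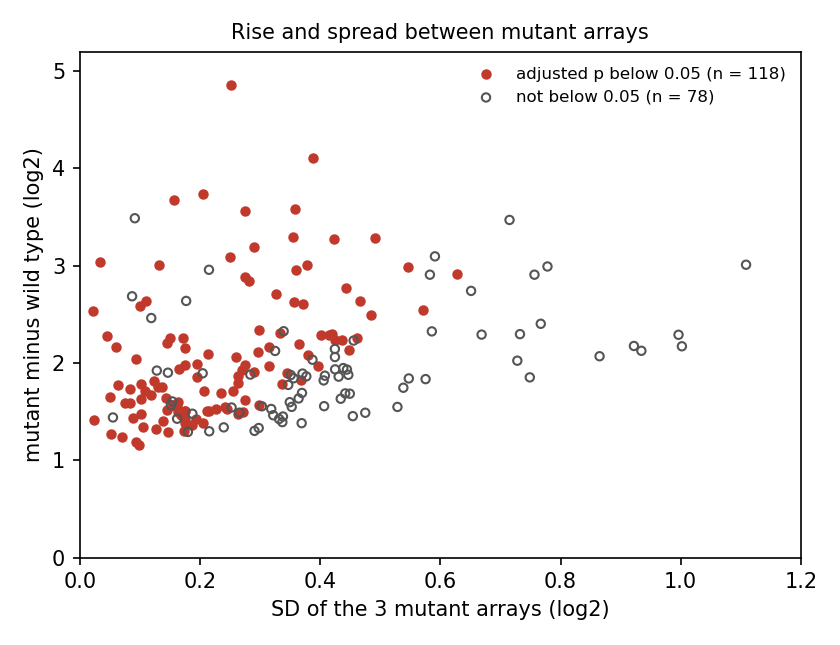
Mutant minus wild-type difference (log2, vertical) of the 196 raised transcripts against the SD of the 3 mutant arrays (log2, horizontal), with the 118 past the limma threshold filled and the other 78 open. Filled points reach an SD of 0.628 and open points one of 1.11, while differences reach 4.86 among filled points and 3.49 among open ones.

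Single transcripts show both ends of this spread, and they were picked out after their values were seen. The transcript with the closest mutant arrays had values of 13.81, 13.85 and 13.84 in the mutant, against 11.51 and 11.09 in the wild type. The genotypes differed by 2.53 (SE 0.19; limma adjusted p = 0.0154). The transcript with the widest mutant spread had values of 11.87, 12.66 and 14.06 in the mutant, against 10.11 and 9.61 in the wild type. Its difference of 3.01 was the larger of these 2 but did not pass (SE 0.653; limma adjusted p = 0.115). The widest wild-type spread was that of a transcript with 12.77, 12.59 and 12.41 in the mutant, against 11.15 and 8.75 in the wild type. Wild-type array 1 of that transcript lay nearer to the mutant arrays than to wild-type array 3. The genotypes differed by 2.64 (SE 0.696; limma adjusted p = 0.155).

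Over all 196, the mutant arrays had a median SD of 0.278, against 0.297 over all transcripts, and the range of the 3 mutant arrays exceeded 1 for 23 (11.7%), against 23.7% of all transcripts. These shares are not matched for signal. By wild-type mean (under 9, 9 to under 10, 10 to under 11, 11 to under 12, 12 or more) the median SDs were 0.388, 0.349, 0.238, 0.24 and 0.18. All transcripts with a wild-type value of 9 or more had 0.517, 0.453, 0.43, 0.341 and 0.225. The rule favours close mutant arrays, as it uses the lowest. The transcripts raised by the same gap from a wild-type level under 9 had a median mutant SD of 0.423, and 35.8% of them had a range over 1. The median wild-type SD was 0.206, against 0.138 over all transcripts. The same arrays chose the transcripts, and no test was made of these differences. Across the 196, pairs of mutant arrays correlated at r = 0.838 to 0.919, the wild-type arrays at 0.827, and mutant with wild-type arrays at 0.705 to 0.779. The values within a genotype are lower than those over all transcripts (0.957 to 0.972 between mutant arrays and 0.986 between wild-type arrays), over a narrower range of signal. No correlation between genotypes over all transcripts is given, and the rule chose the 196 by their differences between genotypes. Transcripts are not independent replicates, and they share the 5 arrays.

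The order of the mutant arrays was uneven. The rule names no array, but it uses the lowest mutant value, so it can favour transcripts on which a deviating array is high. The order is therefore not free of the rule. Mutant replicate 3 was the highest of the 3 for 113 transcripts (57.7%), against 37.8% of all transcripts. Mutant replicate 1 was the lowest for 87 (44.4%), against 32.4% of all transcripts. The median distance to the wild-type mean was 1.77, 1.78 and 2 on mutant arrays 1, 2 and 3. Mutant replicates 1 and 2 correlated at 0.919 across these transcripts, and replicates 1 and 3 at 0.838. Among the transcripts raised from a level under 9, replicate 3 was the highest for 42.5% and replicate 1 the lowest for 35.8%. Among those lowered by the same gap from a wild-type value of 9 or more, replicate 3 was the highest for 16% and the lowest for 37%. Wild-type replicate 1 was below wild-type replicate 3 for 88 of the 196 (44.9%), against 47.1% of all transcripts. No label tells the mutant arrays apart, and the part of array differences in the rises was not tested.

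The differences are set out here by wild-type signal as a description, since both come from values the rule used. In every group the gap was counted from the higher wild-type value, so a difference between means is raised by construction where the wild-type arrays lie apart. In the group with a wild-type mean under 9, 1 wild-type value had to reach 9, so this holds for each of its transcripts. Some of the 35 transcripts with 1 wild-type value under 9 lay in brighter groups. The 21 transcripts with a wild-type mean under 9 had a median difference of 2.24, and the 68 with a mean from 9 to under 10 had one of 2.01. The 56 from 10 to under 11, the 37 from 11 to under 12 and the 14 at 12 or more had medians of 1.61, 1.62 and 1.62. Their largest differences were 4.86, 3.67, 3.74, 3.04 and 2.3 in the same order. The raised transcripts made up 5.35% of the 1271 transcripts with a wild-type mean from 9 to under 10, and 2.96%, 1.44% and 0.192% of the 3 brighter groups, the last of 7296 transcripts. The median mutant SD of all eligible transcripts was lower at high signal as well, at 0.453 from 9 to under 10 and 0.225 at 12 or more. Of the 5 groups, from the dimmest, 52.4%, 55.9%, 67.9%, 62.2% and 57.1% of the raised transcripts passed the limma test, beside 4.4%, 3.07%, 2.06%, 0.893% and 0.123% of all transcripts of the group with a wild-type value of 9 or more. Compression of high signals on the array was not tested here.

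**Figure D4:**
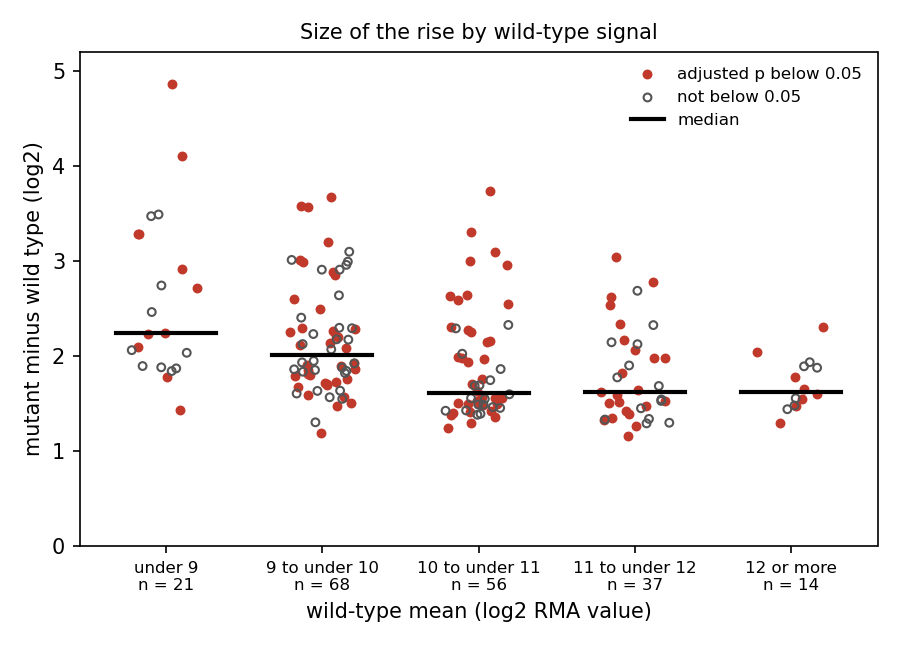
Mutant minus wild-type difference (log2) of each raised transcript, by its wild-type mean (log2 RMA value), with group medians as bars, transcripts past the limma threshold filled and the others open. The medians are 2.24, 2.01, 1.61, 1.62 and 1.62 from the dimmest to the brightest group of 21, 68, 56, 37 and 14 transcripts.

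FBtr0082569 had the largest gap of the set and is given for that reason. Its difference is therefore an extreme among transcripts chosen by the same contrast. Its values were 13.64, 13.33 and 13.15 in mutant larvae, against 8.01 and 9.02 in wild-type larvae. The 3 mutant arrays lay within 0.5 of each other and far above both wild-type arrays, of which only replicate 3 reached the level of 9. The wild-type mean was under 9, in a group where the rule raises a difference between means by construction. The mean was 13.4 ± 0.252 (SD, n = 3) in the mutant and 8.51 ± 0.714 (SD, n = 2) in the wild type, which is 4.86 higher in the mutant, or 29.0-fold (SE 0.35; limma adjusted p = 0.0154). Without mutant replicate 2, mutant replicate 3, wild-type replicate 1 or wild-type replicate 3 its adjusted limma p was 0.0737, 0.0605, 0.104 and 0.135.

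The 3 transcripts whose identifiers follow it in number were also higher in the mutant, and those that precede it did not pass the test. The next had values of 13.24, 13.74 and 13.70 in the mutant, against 12.01 and 11.87 in the wild type, a difference of 1.62 (limma adjusted p = 0.0415). The one after that had 13.32, 13.41 and 13.98 in the mutant, against 9.69 and 10.30 in the wild type, a difference of 3.58 (limma adjusted p = 0.0166). Both belong to the 196. The third to follow had 12.19, 11.78 and 12.12 in the mutant, against 7.77 and 7.84 in the wild type, a difference of 4.22 (limma adjusted p = 0.0136), and its wild-type values were too low for the set. The transcript numbered just before FBtr0082569 had 11.51, 11.23 and 10.65 in the mutant, against 10.31 and 10.29 in the wild type, a difference of 0.83 that did not pass (limma adjusted p = 0.231). The transcripts numbered 2 and 3 before it differed by 0.6 (limma adjusted p = 0.659) and -0.05 (limma adjusted p = 0.905).

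**Figure D5:**
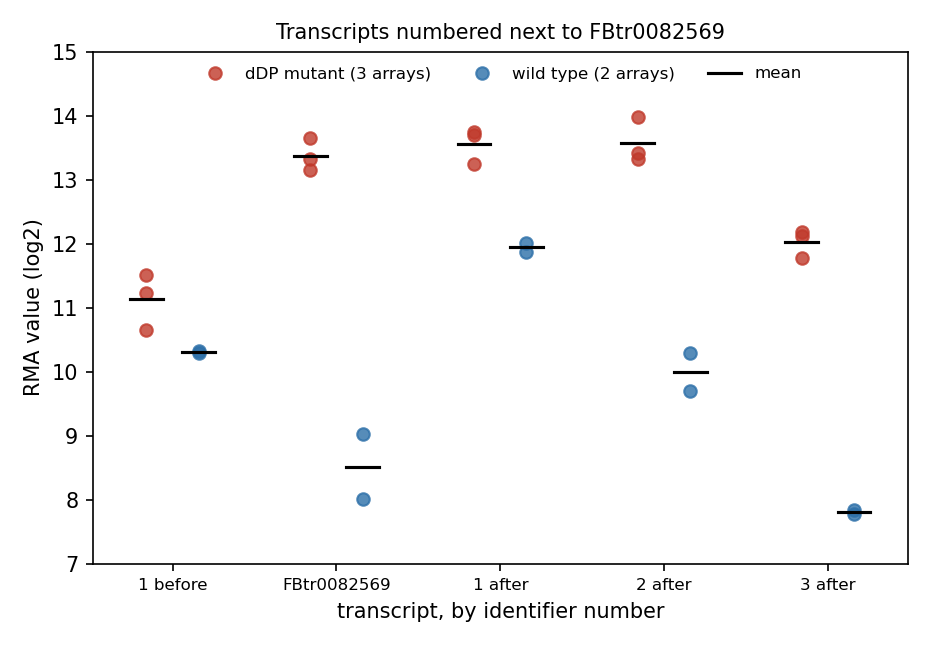
RMA values (log2) on each array for FBtr0082569 and the transcripts numbered 1 before and 1, 2 and 3 after it, with dDP mutant arrays in red on the left of each pair, wild-type arrays in blue and means as bars. Mutant minus wild-type differences are 0.83, 4.86, 1.62, 3.58 and 4.22 from left to right.

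FBtr0289973 had the brightest wild-type signal by its lower value. It had 14.52, 14.73 and 14.62 in mutant larvae, against 13.02 and 13.27 in wild-type larvae, and the groups lay far apart relative to the distances within them. The mean was 14.6 ± 0.102 (SD, n = 3) in the mutant and 13.1 ± 0.175 (SD, n = 2) in the wild type, which is 1.48 higher in the mutant, or 2.78-fold (SE 0.174; limma adjusted p = 0.0345). With any single array left out its adjusted limma p lay between 0.0699 and 0.257. The transcript numbered just before it had 11.74, 12.06 and 12.24 in the mutant, against 10.73 and 10.90 in the wild type, a difference of 1.2 that did not pass (limma adjusted p = 0.0732). The one numbered just after differed by 0.04, and those numbered 2 and 3 after by -0.72 and 0.74. The one numbered 2 before differed by -0.11, and of these neighbours 0 passed the test (limma adjusted p from 0.0732 to 0.934).

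Some raised transcripts had adjoining identifiers. Of the 312 identifiers numbered directly before or after a raised transcript, 36 belonged to the set and 276 did not. Of all 16637 transcripts, 196 belonged to it. There were 20 pairs of raised transcripts with consecutive numbers, involving 36 of the 196, and in 11 pairs all 5 values lay within 0.5 of each other. The differences of the 2 members of a pair lay apart by a median of 0.166, from 0.016 to 3.24. What consecutive numbers share, such as a gene or probes, is not given in the sources used here, and such pairs may not be separate measurements. Counting consecutive members once, a choice made after seeing the data, left 176 with the same median difference of 1.87, of which 105 passed the limma test, against 1.42% of all transcripts. With a distance of up to 10 between numbers, 60 of the 196 fell into 25 clusters and 136 stood alone. How many pairs or clusters any other 196 transcripts of the table would form was not tested.

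The largest cluster held 9 of the 10 transcripts that the table has in its span of numbers. On mutant arrays 1, 2 and 3 these 9 had values of 12.32 to 12.86, 11.9 to 12.44 and 12.19 to 12.6, against 10.75 to 11.42 and 10.5 to 11.23 on wild-type arrays 1 and 3. In each of the 9, mutant replicate 2 was the lowest mutant array, and the differences ran from 1.3 to 1.54. The remaining transcript differed by 1.37 but had a gap of 0.911. Of the 9, 7 passed the limma test, against 1.42% of all transcripts called as higher, and the rule had used the same contrast.

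The 276 adjoining identifiers outside the set are outside it because their own values did not meet the rule, so they are set against the 16441 transcripts of which the same holds. Their median difference was 0.1, against 0.0034 over those 16441. The difference was at least 1 for 32 of the 276 (11.6%), against 4.71%, and for 94 (34.1%) every mutant value exceeded both wild-type values, against 20.7%. Of the 276, 8 were raised by the same gap from a wild-type level under 9, against 193 of the 16441. Another 3 of the 276 were lowered by such a gap, for which no count over the 16441 is given. Adjoining identifiers may share probes or a gene with a raised transcript, which was not tested, and these shares are descriptions with no test.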

How the data were processed

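Each deposited value belongs to 1 transcript on 1 array. Per the submitters' processing notes, the authors used RMA as implemented in oligo. The authors' values are read here as log2, the scale RMA writes, and lie between 4.98 and 15.73; the sources used here give no base, version, genome build, annotation release or detection filter. RMA equalises arrays, which hides a change common to most transcripts. Arrays have no depth, and their number limits the precision.

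The members and lists were chosen with earlier results of these data known. The rule was applied to the deposited values. limma 3.58.1 (lmFit and eBayes, R 4.3.3) was fitted to all 16637 transcripts on 5 arrays, with genotype as the only term, 3 residual degrees of freedom and Benjamini-Hochberg adjustment at 0.05. It was tested on simulated data. Intended gene lists could not be used for want of names. Transcripts given by identifier are the one with the largest gap and, of the rest, the one with the highest lower wild-type value. Alternatives were other normalisations, variance settings, array weights, filters, a replicate block, other limits in the rule and each array left out. Figures were drawn with matplotlib 3.10.9.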

Additional observations from a re-analysis of the deposited data

How the results depend on the processing

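The count of 118 raised transcripts past the limma threshold stayed within 1.5 times, at 93 to 173, under other normalisations, trend and robust variance, array weights, removal of the dimmest 25% and a threshold of 0.1. It was 46 without the dimmest 50%, where 79 of the 196 were left, 0 without moderation, where 191 had an unadjusted limma p below 0.05, and 0 to 30 with an array left out. Nothing is read from the 191, for which no share over all transcripts is given. The replicate block gave 127, with 1 residual degree of freedom and no part of mutant replicate 2 in the difference. Arrays of equal number share only that number, and their deviations from genotype means correlated at 0.52 and 0.21. Among arrays of unequal number, mutant replicate 2 with wild-type replicate 3 gave 0.40, and the others gave -0.52, -0.40 and -0.21. Deviations of 2 wild-type arrays mirror each other, so each mutant array has the same value with both, of opposite sign. No pairing is read from these values. The rule gave 171 to 202 transcripts under the 3 other normalisations, of which 168 to 191 were among the 196. With an array left out, so that fewer values had to meet it, it gave 246 to 311, with median differences of 1.66 to 1.75. A gap of at least 1.5 gave 74 transcripts (median difference 2.51), a gap of at least 0.5 gave 597 (1.26), and a wild-type value of 10 or more gave 127. FBtr0082569 and FBtr0289973 kept their sign in every refit and lost their call in 5 of 13 and 6 of 14. Beyond fewer samples, fewer transcripts or other limits, the cause of these changes was not tested. Without background signals no floor could be set.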
